A study of Mus musculus with 5 samples.

Results

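NF-kB is a family of transcription factors built from 5 subunits, encoded in the mouse by Rela, Rel, Relb, Nfkb1 and Nfkb2, and held in check by the IkB proteins. The 10 genes described here are those 5 subunit genes, the classical inhibitors Nfkbia, Nfkbib and Nfkbie, and the atypical IkB genes Nfkbiz and Bcl3. They were taken by exact symbol from the 55291 gene symbols counted in each library, and all 10 were found and passed the filter on low counts. RNA was sequenced from mouse bone marrow, from cells labelled as monocytes, in 2 samples of the genotype Tet2 mutant (replicates 2 and 3) and 3 samples of the genotype wildtype (replicates 1, 2 and 3). The site and zygosity of the Tet2 mutation, the strain, sex and age of the mice, and the way the cells were isolated are not given in the labels used here, nor whether each sample came from its own animal. The p-values therefore measure only how far these samples spread, and that spread may be technical.

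In the canonical arm, receptors of the tumour necrosis factor, interleukin-1 and Toll-like families activate the IKK kinases, which mark the classical IkB proteins for destruction and free dimers of RelA, c-Rel and p50 to enter the nucleus. In the alternative arm, a smaller group of receptors such as CD40 and the lymphotoxin beta receptor stabilises the kinase NIK, p100 (the product of Nfkb2) is cut to p52, and RelB with p52 enters the nucleus. Several of these genes, among them Nfkbia, Nfkb1, Nfkb2, Rel and Relb, are known to be targets of NF-kB themselves. Transcript counts measure none of the later steps, such as the cutting of p100, the loss of IkB protein or entry into the nucleus.

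Promoter sequences from RefSeq (GRCm38.p6) matched 7 of the 10 genes by symbol: Rela, Rel, Nfkb2, Nfkbia, Nfkbib, Nfkbie and Bcl3. They are shown as a description, and any part of these sequences in the differences between the genotypes was not tested. The 250 bases before each annotated start were searched on both strands for the kB consensus decamer, the site that NF-kB dimers recognise. It was found for 4 of the 7 genes, Rel, Nfkb2, Nfkbia and Nfkbie, and for 8.23% of the 27025 genes with such a window. No match in these letters was found for Rela, Nfkbib and Bcl3. For Nfkbib, Nfkbie and starts 1 and 2 of Nfkb2, the bases after the start were absent near the beginning of their GENCODE M21 transcripts. Those windows may thus not lie at a start in use. Capitals below mark the match, with overlapping matches joined, and each sequence reads 5′ to 3′ along the gene's own strand.
Rel (chr11:23770971-23771219, minus strand): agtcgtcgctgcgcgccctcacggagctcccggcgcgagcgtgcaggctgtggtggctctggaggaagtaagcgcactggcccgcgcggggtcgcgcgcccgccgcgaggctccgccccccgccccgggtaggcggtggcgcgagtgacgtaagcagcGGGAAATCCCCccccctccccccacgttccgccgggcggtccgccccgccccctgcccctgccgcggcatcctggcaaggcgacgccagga
Nfkbia (chr12:55492648-55492897, minus strand): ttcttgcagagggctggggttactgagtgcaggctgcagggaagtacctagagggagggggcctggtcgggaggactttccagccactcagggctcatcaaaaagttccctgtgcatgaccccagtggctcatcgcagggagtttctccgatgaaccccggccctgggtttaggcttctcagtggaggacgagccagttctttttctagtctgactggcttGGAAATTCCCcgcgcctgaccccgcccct
Nfkbie (chr17:45555450-45555699, plus strand): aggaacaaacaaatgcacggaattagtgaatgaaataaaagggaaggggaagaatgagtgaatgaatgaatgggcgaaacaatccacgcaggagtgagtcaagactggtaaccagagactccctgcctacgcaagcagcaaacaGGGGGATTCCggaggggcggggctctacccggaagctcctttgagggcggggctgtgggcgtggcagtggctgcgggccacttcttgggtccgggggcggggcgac
Nfkb2, start 1 (chr19:46304688-46304717, plus strand): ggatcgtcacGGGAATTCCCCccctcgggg
Nfkb2, start 1 (chr19:46304707-46304736, plus strand): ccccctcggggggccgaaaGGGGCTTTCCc
Nfkb2, start 2 (chr19:46305449-46305478, plus strand): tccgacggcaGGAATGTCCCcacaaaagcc
Nfkb2, start 3 (chr19:46305695-46305724, plus strand): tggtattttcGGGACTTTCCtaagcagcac
Nfkb2 has 3 annotated starts, and each of the 3 windows held a match, with 2 before start 1. Only 30 bases are shown around each, because these windows overlap exons in the GENCODE M21 annotation. The match at start 3 is the exact decamer of the immunoglobulin kappa enhancer, which was found in 0.14% of the 32851 windows of all genes. A match in letters is a description and does not show binding.

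The library totals were 17459808 and 60508381 counts for Tet2-mutant replicates 2 and 3, and 53789308 to 72414875 counts for the 3 wild-type libraries. Genes with any count numbered 18047 and 17944 in Tet2-mutant replicates 2 and 3, against 24532 to 26207 in the wild-type libraries. The cause of this difference was not tested, and it cannot be told apart from the genotype. Levels are given as CPM, counts scaled to a common library size adjusted by TMM. The adjustment factors were 0.724 and 0.896 for Tet2-mutant replicates 2 and 3 and 1.14 to 1.17 for the wild type. Over the tested genes, log2 CPM of the 2 mutant libraries correlated at 0.885. Tet2-mutant replicate 2 was closer to each wild-type library, at 0.904 to 0.910, while replicate 3 correlated with them at 0.838 to 0.845. Pairs of wild-type libraries correlated at 0.975 to 0.984. Tet2 itself had 5.31 and 15.6 CPM in Tet2-mutant replicates 2 and 3, against 9.77 to 11.9 CPM in the wild type, so its level did not separate the genotypes and does not check the labels. Monocyte transcripts such as Lyz2, Csf1r and Ccr2 were detected in every library. So were those of other cells. The 10 neutrophil genes summed to 53160 and 23187 CPM in the mutant libraries and to 47510 to 59442 CPM in the wild-type libraries. Ngp alone had 25515 and 13815 CPM in Tet2-mutant replicates 2 and 3. Ltf, Mpo, Elane, Retnlg, Mmp8 and Cxcr2 were lower in both mutant libraries than in every wild-type library. The same held for 33.3% of all tested genes. For Ngp, Camp, S100a8 and S100a9 the genotypes overlapped, and no gene of this list was called.

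Most of the 10 subunit and inhibitor genes were more abundant in the Tet2-mutant libraries. In bulk RNA, more or fewer cells of a type and more or less RNA per cell cannot be told apart. Of the 10 genes, 8 rose, 1 fell (Nfkbiz) and 1 did not pass (Rela), by the quasi-likelihood test of edgeR at a threshold of 0.05, with p-values adjusted by the Benjamini-Hochberg method over the 17062 genes tested. Over all tested genes, 10.6% were called higher in the mutant and 4.43% lower, 15% in all. The median log2 fold change of the 10 genes was 1.74, against -0.07 for all tested genes. The largest change was that of Relb, a subunit of the alternative arm. The genotypes did not overlap for 9 of the 10 genes, 8 of them higher and 1 lower in the mutant, and 56.2% of all tested genes had this property, 22.9% higher and 33.3% lower.

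**Figure D1:**
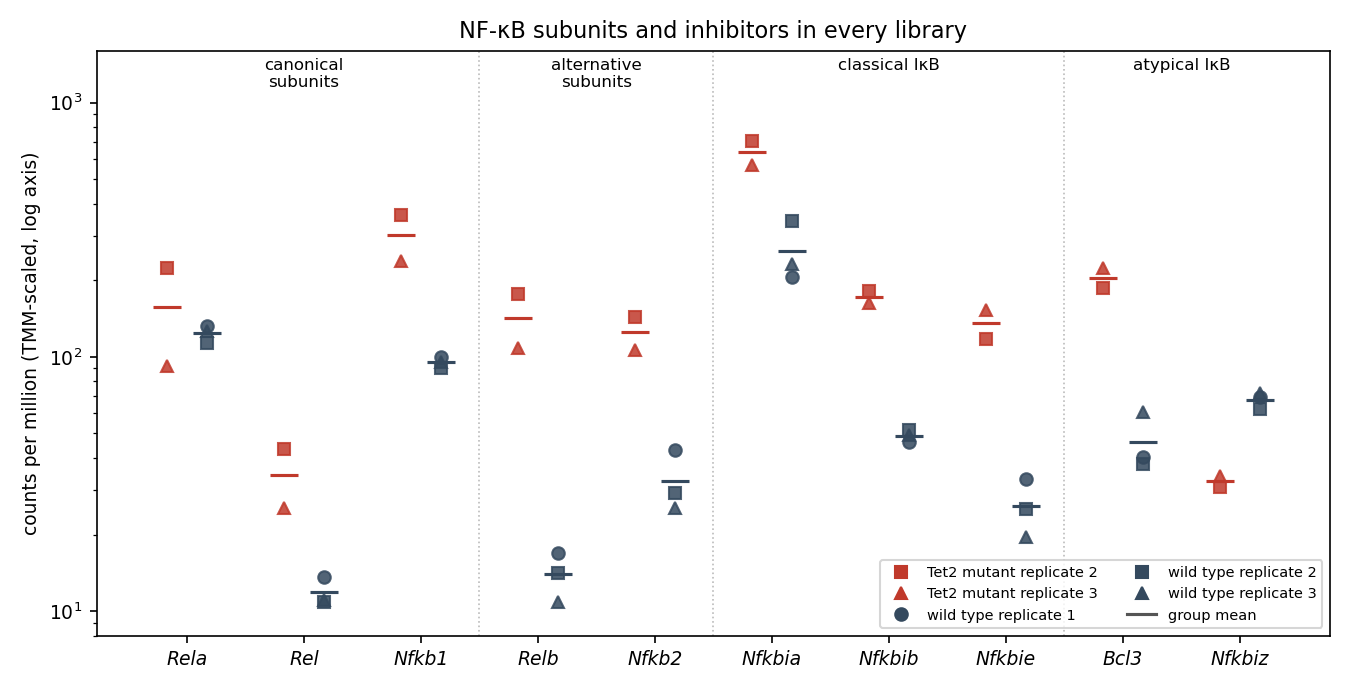
Level of each gene (CPM scaled by TMM, log axis) in each library, with Tet2-mutant libraries in red to the left of the wild-type libraries in blue, symbols for the replicate number and bars for group means. Every gene but Rela has both mutant libraries on one side of all 3 wild-type libraries, and Nfkbiz alone among these 9 is lower in the mutant.

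The canonical subunits diverged. Rela encodes RelA (p65), the main activating subunit of the canonical arm, and lies on chromosome 19 (5637483 to 5648130, GRCm38). Rela had 223 and 91.7 CPM in Tet2-mutant replicates 2 and 3, against 132, 114 and 126 CPM in wild-type replicates 1, 2 and 3. The mutant libraries thus lay on either side of the wild-type range. The log2 fold change of Rela was 0.34 ± 0.37 (SE; adjusted p = 0.512). Leaving out Tet2-mutant replicate 3 gave 0.84 for Rela (adjusted p = 0.0199), and leaving out replicate 2 gave -0.44 (adjusted p = 0.121). Over 13 alternatives its adjusted p ran from 0.0199 to 0.955. The direction also turned with the scaling, with -0.026 for upper-quartile scaling and -0.24 for the plain library size.

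Nfkb1 encodes p105 and the p50 subunit cut from it, and lies on chromosome 3 (135584655 to 135691547). Nfkb1 had 363 and 238 CPM in Tet2-mutant replicates 2 and 3, against 100.02, 90.3 and 95.1 CPM in wild-type replicates 1, 2 and 3. Both mutant libraries were above the highest wild-type level, and the wild-type libraries were close together. Nfkb1 rose by 1.66 ± 0.26 on the log2 scale (SE; adjusted p = 0.0109), a 3.16-fold difference.

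Rel encodes c-Rel, a subunit abundant in lymphocytes and needed for interleukin-12 production by myeloid cells, on chromosome 11 (23736847 to 23770970). Rel had 43.4 and 25.3 CPM in Tet2-mutant replicates 2 and 3 and 13.6, 10.8 and 11.05 CPM in wild-type replicates 1, 2 and 3. Rel rose by 1.54 ± 0.39 on the log2 scale (SE; adjusted p = 0.043), with the 2 mutant libraries apart from each other and above the wild type. The call was lost without wild-type replicate 1, 2 or 3 (adjusted p = 0.101, 0.13 and 0.126), with upper-quartile scaling (adjusted p = 0.0575) and with the plain library size (adjusted p = 0.087). Over its 13 alternatives the adjusted p ran from 0.00178 to 0.349.

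Both alternative subunits rose. Relb, on chromosome 7 (19606217 to 19629438), encodes RelB, the activating subunit of the alternative arm, which dendritic cells need to mature. Relb had 176 and 109 CPM in Tet2-mutant replicates 2 and 3, against 16.8, 14.2 and 10.9 CPM in wild-type replicates 1, 2 and 3. The lower mutant library was still well above every wild-type library. The log2 fold change was 3.35 ± 0.34 (SE; adjusted p = 0.00219), a 10.2-fold difference, and Relb was called in all 13 alternatives, with log2 fold changes of 2.80 to 3.65.

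Nfkb2, on chromosome 19 (46304320 to 46312385), encodes p100, which acts as an inhibitor of RelB until it is cut to p52. Nfkb2 had 144 and 106 CPM in Tet2-mutant replicates 2 and 3, against 43.0, 29.1 and 25.4 CPM in wild-type replicates 1, 2 and 3. All wild-type libraries were below both mutant libraries. Nfkb2 rose by 1.94 ± 0.32 on the log2 scale (SE; adjusted p = 0.0135), a 3.84-fold difference.

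The make-up of the subunit transcripts was described within each library. Ratios within a library need no scaling between libraries, so they were taken on counts per kilobase of the longest coding transcript with a consensus coding sequence. On that scale Relb made up 26.5% and 27.7% of the transcripts of the 5 subunits in Tet2-mutant replicates 2 and 3, against 7.93%, 7.92% and 5.86% in wild-type replicates 1, 2 and 3. Rela made up 27.2% and 19.0% in the mutant libraries and 50.7%, 51.8% and 55.3% in the wild-type libraries. Rela thus accounted for most subunit transcripts in the wild type and for a minority in the mutant. The share of Nfkb1 was 29.2% and 32.5% in the mutant, against 25.3% to 27.5% in the wild type, and that of Rel was 1.76% to 1.93% in every library. The shares depend on the length used. Per kilobase of the union of all annotated exons, a length chosen after the data were seen, Nfkb1 made up 16.2% and 19.0% in the mutant and 12.4% to 13.4% in the wild type. Rela then made up 39.2% and 28.7% in the mutant, the largest share there, and 64.4% to 69.9% in the wild type. Relb made up 24.5% and 26.9% in the mutant and 4.76% to 6.51% in the wild type on that length.

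**Figure D2:**
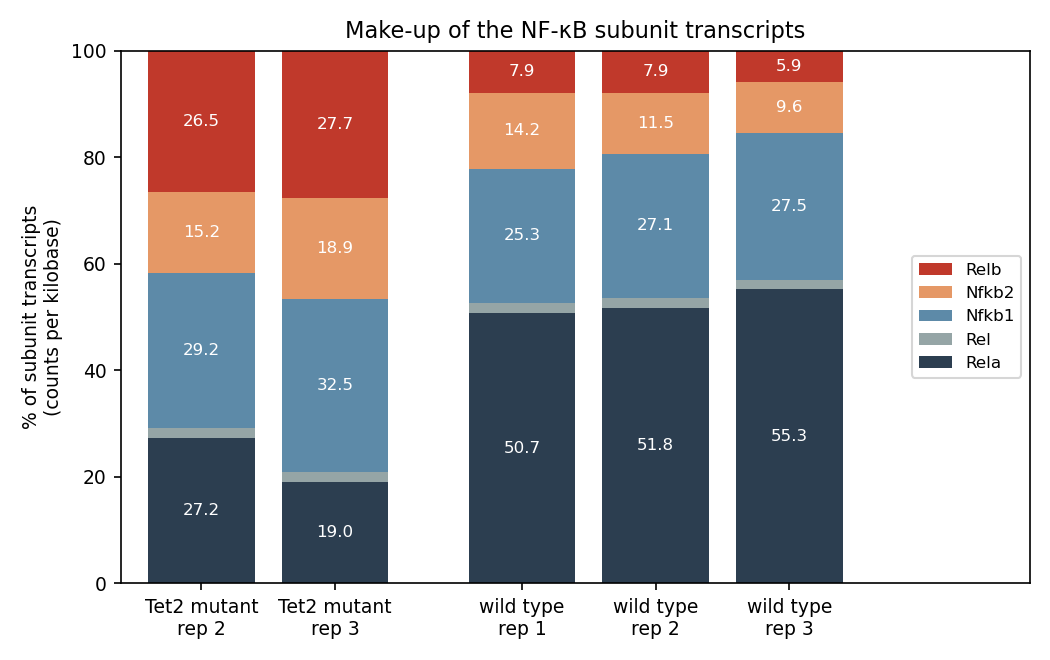
Share of each subunit gene (percent of the 5 subunits' counts per kilobase) in each library, with the 2 Tet2-mutant libraries on the left and the 3 wild-type libraries on the right. Relb takes 26.5% and 27.7% in the mutant libraries and at most 7.93% in the wild-type libraries, and Rela takes 27.2% and 19.0% in the mutant and 50.7% or more in the wild type.

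The ratio of alternative subunits (Relb and Nfkb2) to canonical subunits (Rela, Rel and Nfkb1) was 0.714 and 0.873 in Tet2-mutant replicates 2 and 3, against 0.285, 0.240 and 0.183 in wild-type replicates 1, 2 and 3. The genotypes did not overlap. The mean log2 ratio was -0.34 ± 0.21 in the mutant (SD, n = 2) and -2.11 ± 0.32 in the wild type (SD, n = 3), a difference of 1.76 or 3.398-fold. A two-sided exact permutation test gave p = 0.2, the smallest value that 2 samples against 3 can give here, and 0.4 after adjustment over the 2 ratios tested. This permutation test cannot pass 0.05 with 2 samples against 3.

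Relb stood apart from both Rela and Nfkb1. Its ratio to Rela per kilobase was 0.973 and 1.46 in Tet2-mutant replicates 2 and 3, against 0.156, 0.153 and 0.106 in the wild type, an 8.73-fold difference. Relb to Nfkb1 was 0.906 and 0.850 in the mutant, against 0.314, 0.293 and 0.213 in the wild type. For Nfkb2 to Nfkb1 the genotypes overlapped, with 0.520 and 0.582 in the mutant and 0.563, 0.423 and 0.350 in the wild type. The fold between genotypes of a pair ratio does not depend on the lengths. These pair ratios were chosen after the levels were known and were not tested.

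All 3 classical inhibitors rose. Nfkbia encodes IkB-alpha, which holds RelA dimers in the cytoplasm and is remade after each round of activation, and lies on chromosome 12 (55489410 to 55492647). Nfkbia had 709 and 568 CPM in Tet2-mutant replicates 2 and 3, against 206, 341 and 232 CPM in wild-type replicates 1, 2 and 3. Wild-type replicate 2 was the highest of its group but below both mutant libraries. Nfkbia rose by 1.30 ± 0.29 on the log2 scale (SE; adjusted p = 0.0343). The call was lost without wild-type replicate 1 (adjusted p = 0.0733) or 3 (adjusted p = 0.0674) and with the plain library size (adjusted p = 0.07), in a range from 0.00076 to 0.0948.

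Nfkbib encodes IkB-beta, a classical inhibitor of RelA and c-Rel dimers, on chromosome 7 (28758251 to 28767512). Nfkbib had 182 and 163 CPM in Tet2-mutant replicates 2 and 3, against 46.4, 51.5 and 49.2 CPM in wild-type replicates 1, 2 and 3. Both groups were tight and far apart, and Nfkbib rose by 1.82 ± 0.23 on the log2 scale (SE; adjusted p = 0.00485). Nfkbie encodes IkB-epsilon, a classical inhibitor of RelA and c-Rel dimers too, on chromosome 17 (45555703 to 45563169). Nfkbie had 118 and 153 CPM in Tet2-mutant replicates 2 and 3, against 33.0, 25.2 and 19.6 CPM in wild-type replicates 1, 2 and 3. Nfkbie rose by 2.38 ± 0.31 on the log2 scale (SE; adjusted p = 0.00587), the largest change among the classical inhibitors.

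The proportion of inhibitors to subunits did not separate the genotypes. The ratio of the 3 classical inhibitors to the 5 subunits per kilobase was 1.94 and 2.82 in Tet2-mutant replicates 2 and 3, against 1.74, 3.11 and 2.13 in wild-type replicates 1, 2 and 3. The log2 difference of 0.05 was smaller than the pooled SD of 0.41, with p = 1 by the exact two-sided permutation test, and it turned to -0.22 without Tet2-mutant replicate 3 and to -0.14 without wild-type replicate 1. Within the inhibitors, Nfkbie to Nfkbia was 0.108 and 0.174 in the mutant, against 0.104, 0.0478 and 0.0547 in the wild type.

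The atypical inhibitors, which act in the nucleus on p50 and p52 dimers, moved in opposite directions. Bcl3, on chromosome 7 (19808462 to 19822770), can turn such dimers into activators or keep them on DNA as repressors. Bcl3 had 186 and 223 CPM in Tet2-mutant replicates 2 and 3, against 40.5, 37.99 and 60.7 CPM in wild-type replicates 1, 2 and 3. Wild-type replicate 3 was the highest of its group and still below both mutant libraries. Bcl3 rose by 2.14 ± 0.29 on the log2 scale (SE; adjusted p = 0.0066).

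Nfkbiz, on chromosome 16 (55811375 to 55838899), encodes IkB-zeta, which macrophages need to make interleukin-6 after Toll-like receptor signals. Nfkbiz had 30.7 and 34.1 CPM in Tet2-mutant replicates 2 and 3, against 69.3, 62.2 and 72.0 CPM in wild-type replicates 1, 2 and 3. Both groups were tight. Nfkbiz fell by 1.06 on the log2 scale (SE 0.27; adjusted p = 0.044), 2.09-fold lower. The direction was the same in all 13 alternatives, but the call was lost without wild-type replicate 1, 2 or 3 (adjusted p = 0.173, 0.194 and 0.226), in a range from 0.00782 to 0.388. The ratio of Nfkbiz to Bcl3 per kilobase was 0.0744 and 0.0687 in the mutant, against 0.770, 0.737 and 0.534 in the wild type, 9.39-fold lower.

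**Figure D3:**
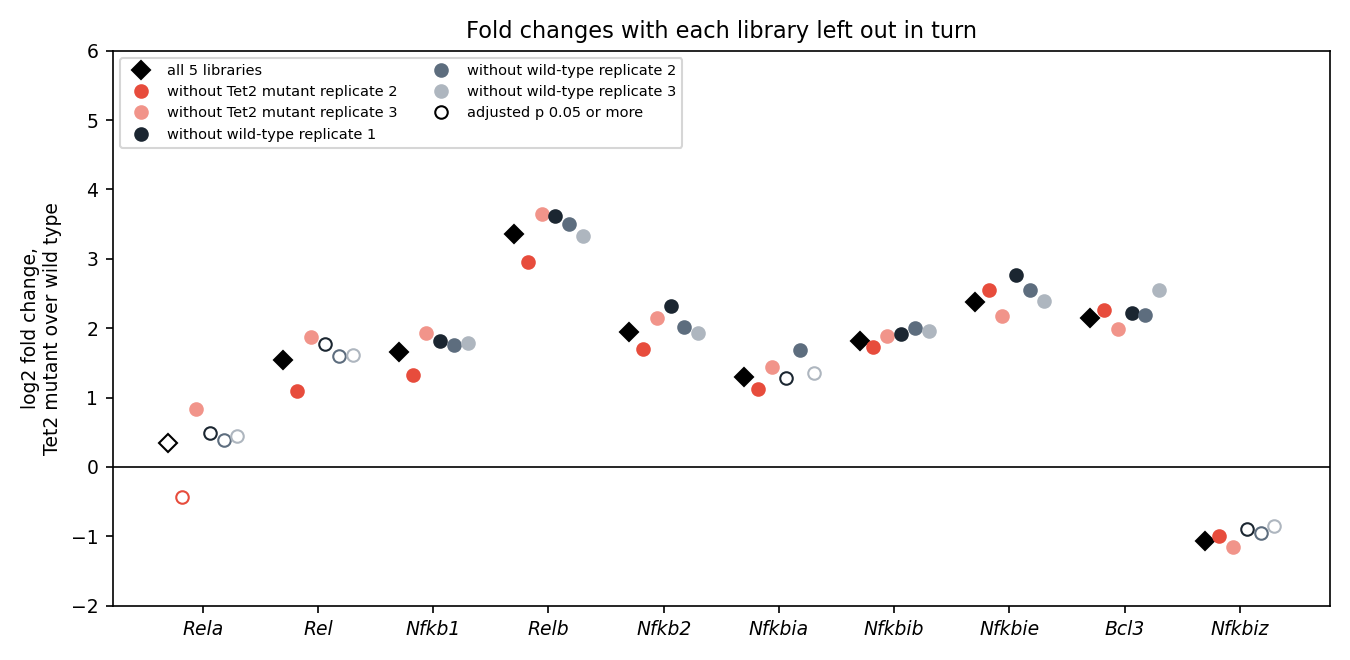
Log2 fold change of each gene (Tet2 mutant over wild type) with all 5 libraries (diamonds) and with each library left out in turn (circles), filled where the adjusted p was under 0.05. Relb, Nfkb1, Nfkb2, Nfkbib, Nfkbie and Bcl3 are filled in every fit, Rel and Nfkbiz are open in the 3 fits without a wild-type library, and Rela lies at -0.44 without Tet2-mutant replicate 2 and 0.84 without replicate 3.

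Without a mutant library only 1 remained, taken to have the spread of the wild-type libraries. Of the 10 genes, 6 (Relb, Nfkb1, Nfkb2, Nfkbib, Nfkbie and Bcl3) were called in every alternative. With the plain library size the median over all tested genes shifted on the log2 scale by -0.51, and 29.1% of called genes were higher in the mutant in place of 70.5%; upper-quartile scaling shifted it by -0.28 and gave 43.6%. Under the plain library size the genes higher by the test were Relb (2.80), Nfkbie (1.89), Bcl3 (1.64), Nfkb2 (1.40), Nfkbib (1.29) and Nfkb1 (1.11), as log2 fold changes, and 6.92% of all tested genes were higher. Nfkbiz was at -1.57 (adjusted p = 0.0186) on that scale.

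**Figure D4:**
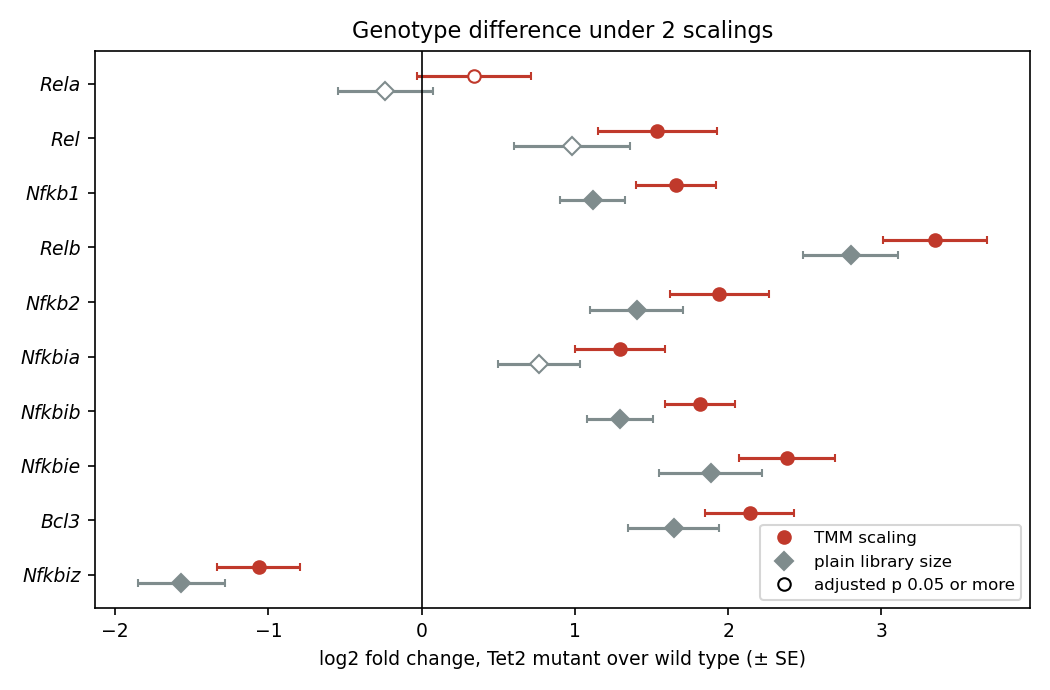
Log2 fold change of each gene (Tet2 mutant over wild type, bars for SE) with TMM scaling (red circles) and with the plain library size (grey diamonds), open where the adjusted p was 0.05 or more. The plain library size moves every estimate to the left, to 2.80 for Relb and to -0.24 for Rela, and leaves Rel, Nfkbia and Rela open.

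Per kilobase of transcript, on the CPM scale, Nfkbia was the most abundant of the 10 in both genotypes, at a mean of 404 in the mutant and 165 in the wild type, and Rel the least, at 4.605 in the mutant and 1.58 in the wild type. In the mutant Bcl3 came next at 110.5, then Nfkbib at 83.7. Nfkb1 (73.0), Relb (64.5), Rela (57.9) and Nfkbie (55.6) followed in the mutant, with overlapping libraries, and then Nfkb2 (39.8) and Nfkbiz (7.88). In the wild type Rela came after Nfkbia at 45.7, ahead of Bcl3 (25.1), Nfkbib (23.8) and Nfkb1 (23.1), whose libraries overlapped. Nfkbiz (16.5), Nfkbie (10.7), Nfkb2 (10.3) and Relb (6.32) followed in the wild type, where Nfkbie and Nfkb2 overlapped. Relb thus ranked in position 5 in the mutant and 9 in the wild type, and Rela in position 6 in the mutant and 2 in the wild type. With exon-union lengths Relb ranked in position 6 in the mutant, at 36.7, and 9 in the wild type, at 3.59, while Rela ranked in position 4 in the mutant, at 51.2, and 2 in the wild type, at 40.4. Nfkb1 had 24.9 in the mutant and 7.89 in the wild type with that length. Nfkbia and Rel stayed the highest and lowest of the 10 in both genotypes.

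Some reads could belong to neighbours, since the strand setting of the counting is not given. Exons of Nfkbib share 42 bases with Sirt2 and 314 with Ccer2, on the opposite strand. Sirt2 had 114 and 178 CPM in the mutant and 73.1 to 76.3 CPM in the wild type, while Ccer2 was at most 0.0134 CPM. Exons of Nfkb2 share 531 bases with AC114539.1, a noncoding RNA gene on the opposite strand whose level was not analysed here. They share 299 bases with Psd, which had 2.22 and 4.32 CPM in the mutant and 4.79 to 7.51 CPM in the wild type. Exons of Bcl3 share 161 bases with Gm16175, at most 0.0979 CPM.

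Most of the genes upstream of NF-kB did not pass the test, and this does not set them apart, since only 15% of all tested genes were called. The share of all tested genes called moved with the libraries used, from 10.6% higher and 4.43% lower with all 5. It was 26.5% higher and 32.2% lower without Tet2-mutant replicate 2, and 21% higher and 18.4% lower without Tet2-mutant replicate 3. Without wild-type replicates 1, 2 and 3 in turn it was 3.81%, 5.41% and 5.09% higher and at most 0.112% lower. The list counts with a library left out, given below, are to be read against these shares.

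Of 14 genes for activators and brakes of the alternative arm, 4 rose and 0 fell, with a median log2 fold change of 0.93. Cd40, a receptor on B cells and antigen-presenting cells, had 125 and 111 CPM in the mutant libraries, against 14.1, 12.5 and 5.96 CPM in the wild type (log2 fold change 3.45 ± 0.41 SE, adjusted p = 0.00419). Ltb, a chain of the lymphotoxin ligand, had 516 and 512 CPM in the mutant, against 134, 111 and 67.0 CPM in the wild type (2.31 ± 0.32, adjusted p = 0.00727). Both genes had their mutant libraries close together and above the wild type.

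Tnfrsf11a, which encodes the receptor RANK, had 30.4 and 15.1 CPM in the mutant, against 1.82, 1.35 and 1.60 CPM in the wild type (log2 fold change 3.84 ± 0.55 SE, adjusted p = 0.00818). The fourth, Birc3, an E3 ligase named after its values were seen, was higher at 133 CPM in each mutant library, against 70.8, 66.4 and 54.0 CPM in the wild type. Map3k14, which encodes NIK, did not pass at 26.5 and 29.4 CPM in the mutant, against 13.5, 8.47 and 8.96 CPM in the wild type, and was likewise named after its values were seen. Without Tet2-mutant replicate 2, where 26.5% of all genes were called higher, 9 genes of this list rose and 1 fell.

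Of 12 receptor genes of the canonical arm, 3 rose and 0 fell, with a median of 0.28. Tlr1, which pairs with Toll-like receptor 2, had 97.2 and 39.8 CPM in the mutant, against 9.23, 5.42 and 6.95 CPM in the wild type (log2 fold change 3.25 ± 0.47 SE, adjusted p = 0.00846). Tlr7, an endosomal sensor of RNA, had 41.9 and 40.6 CPM in the mutant, against 10.7, 8.95 and 7.87 CPM in the wild type (2.17 ± 0.35, adjusted p = 0.0119). Tlr9, a sensor of DNA, had 0.396 and 10.4 CPM in the mutant, against 0.228, 0.0834 and 0.147 CPM in the wild type (adjusted p = 0.0441), and so rests on Tet2-mutant replicate 3. Tlr9 did not pass without that library or without any wild-type library, and Tlr7 did not pass without wild-type replicate 2 or 3. The rises in the list were 2, 1 and 1 without wild-type replicates 1, 2 and 3.

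In the IKK complex and TAK1 arm, 0 of 19 genes rose and 2 fell, with a median of 0.24. Tab1 and Tab3, partners of the kinase TAK1, were the genes that fell. Tab1 had 10.2 and 8.77 CPM in the mutant, against 32.3, 31.0 and 35.3 CPM in the wild type (log2 fold change -1.79 ± 0.36 SE, adjusted p = 0.0238). Tab3 had 4.28 and 2.49 CPM in the mutant, against 14.2, 12.1 and 14.9 CPM in the wild type (-2.03 ± 0.55, adjusted p = 0.0495). Neither passed without wild-type replicate 1, 2 or 3, and the list then had 0 falls, while without Tet2-mutant replicates 2 and 3 in turn it had 3 and 4 rises and 4 and 5 falls. DESeq2 called 2 rises in the list and limma-voom 1.

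Among 15 negative regulators 3 rose and 1 fell, with a median of 0.31. Otulin, which removes linear ubiquitin chains, had 259 and 219 CPM in the mutant, against 70.3, 96.2 and 83.7 CPM in the wild type (log2 fold change 1.52 ± 0.25 SE, adjusted p = 0.0127). Tnip3, a partner of A20, had 8.24 and 27.8 CPM in the mutant, against 0.938, 1.19 and 1.40 CPM in the wild type (3.94 ± 0.69, adjusted p = 0.016). Tnip2, another A20 partner, had 89.0 and 48.4 CPM in the mutant, against 25.04, 24.9 and 27.6 CPM in the wild type (1.41 ± 0.34, adjusted p = 0.0393). Rnf11 was the gene that fell, at 112 and 72.2 CPM in the mutant, against 194, 177 and 263 CPM in the wild type (log2 fold change -1.20 ± 0.31 SE, adjusted p = 0.0461), and was named after its values were seen.

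Without wild-type replicates 1, 2 and 3 in turn only Otulin of the 3 named risers passed, and the list had 1 rise each time, against 7 without Tet2-mutant replicate 3. Tnfaip3, which encodes A20 itself, and Nfkbid, the remaining nuclear IkB gene, missed the threshold, Tnfaip3 at a log2 fold change of 1.01 (adjusted p = 0.102) and Nfkbid at 0.31 (adjusted p = 0.432). Both were named after their values were seen.

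Among genes known as NF-kB targets, 31 of 36 passed the filter on low counts, of which 8 rose and 0 fell, with a median of 0.80. Cd83, a surface protein of mature dendritic cells, had 479 and 565 CPM in the mutant, against 33.9, 27.2 and 19.6 CPM in the wild type. Icam1, an adhesion molecule, had 164 and 132 CPM in the mutant, against 21.2, 17.8 and 22.3 CPM in the wild type. Il12b, which encodes the p40 chain shared by interleukin-12 and interleukin-23, had 44.0 and 12.4 CPM in the mutant, against 0.0804, 0.143 and 0.229 CPM in the wild type. All 3 had both mutant libraries above the wild type and were called in every alternative that tested them. The number of rises was 5 without wild-type replicate 1, 16 without Tet2-mutant replicate 2 and 12 without Tet2-mutant replicate 3, while 7 genes fell without mutant replicate 2 and 4 without mutant replicate 3. The share of all genes called higher was 3.81%, 26.5% and 21% in these fits.

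Of 8 targets tied to the alternative arm, 5 passed the filter, of which 3 rose and 0 fell. With the filter at 1 CPM in 3 libraries 0 rose, because these 3 genes were then left out. Without wild-type replicates 1, 2 and 3 in turn, 1, 2 and 2 rose. Cxcl13, a chemokine that attracts B cells, had 324 and 154 CPM in the mutant, against 0.630, 0.524 and 0.539 CPM in the wild type (log2 fold change 8.72 ± 0.44 SE, adjusted p = 0.000728). Ccl22, a chemokine of mature dendritic cells, had 36.9 and 3.25 CPM in the mutant, against 0.335, 0.238 and 0.473 CPM in the wild type (5.84 ± 1.06, adjusted p = 0.0178), and did not pass without wild-type replicate 1. Ccl19, a chemokine of lymphoid stroma and dendritic cells, had 50 and 28 counts in the mutant, against 3, 1 and 0 in the wild type. These wild-type counts were at or under the floor of 3 counts. Among called genes of the pathway lists, only Ccl19 passed the filter through the mutant libraries alone. Cxcl12, the stromal chemokine, did not pass at 19.3 and 1.81 CPM in the mutant, against 87.8, 55.1 and 50.9 CPM in the wild type, and was named after its values were seen.

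**Figure D5:**
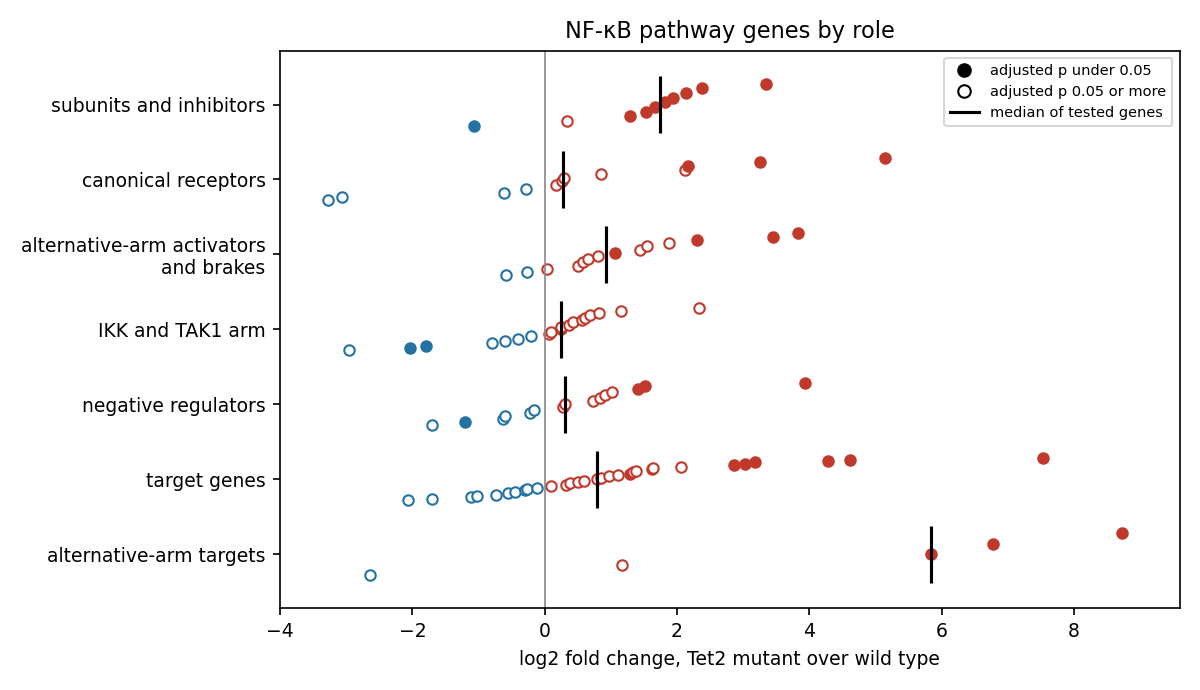
Log2 fold change (Tet2 mutant over wild type) of the 10 subunit and inhibitor genes and of the tested genes of 6 pathway lists, filled where the adjusted p was under 0.05, with a black line at each median. The 10 genes have a median of 1.74 and the IKK and TAK1 arm one of 0.24, and the list of alternative-arm targets holds only 5 tested genes.

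The summed markers of some other cell types were higher in the mutant libraries, while no neutrophil or erythroid marker was called. Rises among markers, here and below, are to be read against the 10.6% of all tested genes called higher. They were counted only with all 5 libraries and TMM scaling. Summed over 12 macrophage genes the level was 8344 and 7439 CPM in Tet2-mutant replicates 2 and 3, against 552 to 693 CPM in the wild type, and 10 of the 12 rose, while Siglec1, a marker of resident macrophages, was at 0 in Tet2-mutant replicate 3. The 9 conventional dendritic cell genes summed to 811 and 845 CPM in the mutant, against 94.4 to 113 CPM in the wild type, and 5 of the 9 rose. The 10 T and NK cell genes summed to 1228 and 1044 CPM in the mutant, against 256 to 331 CPM in the wild type, and 4 of the 10 rose. Those 4 were the T cell genes Cd3e, Cd3g, Trac and Trbc2. The NK cell gene Klrb1c had 1.66 and 1.55 CPM in the mutant, against 13.0, 3.59 and 6.27 CPM in the wild type, and did not pass. Neither did Ncr1, at a log2 fold change of -0.93, nor Nkg7, at 0.59. Relb, Nfkb2, Bcl3, Cd40 and Cd83 were higher in the same libraries as these lists, and the part of cell types in the NF-kB values was not tested.

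The 10 B cell genes summed to 994 and 7548 CPM in Tet2-mutant replicates 2 and 3, against 148 to 775 CPM in the wild type, and 3 of the 10 rose. The part of B cells in the NF-kB values was not tested. Erythroid genes summed to 13905 and 2034 CPM in the mutant, against 6004 to 16076 CPM in the wild type, with 0 of 8 called by edgeR's test. Pancreatic acinar genes, not expected from marrow, summed to 558 and 1370 CPM in the mutant, against 39.8 to 55.6 CPM in the wild type. Cela1 held most of the wild-type sum, and the other 9 genes summed to 437 and 1167 CPM in the mutant, against 2.05 to 2.73 CPM in the wild type. Of these 10 acinar genes 9 rose and Amy2a5 was at 0 in every library, while no other cell type list had a gene at 0 in all 5. Of the 9, Cela3b and Try4 passed the filter on low counts only through the mutant libraries. By the plain library size, Cela3b was at most at 0.141 CPM and Try4 at 0.149 CPM in the wild type, under the cutoff of 0.165 CPM.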

How the data were processed

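The authors deposited 1 file of raw gene counts per library. Trimmomatic trimmed and STAR aligned the reads (mm10), per the submitters' processing notes; versions, read counter, annotation and strand setting are not given. Per the labels' protocols, libraries were made with a SMARTer mRNA-Seq kit, and no molecular identifiers are named, so errors cover counting error and the spread between libraries.

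The tools were edgeR 4.0.16, DESeq2 1.42.0 and limma 3.58.1, under R 4.3.3. edgeR's filterByExpr kept 17062 genes, libraries were scaled by TMM, and the 2 genotypes were tested by edgeR's quasi-likelihood method, with Benjamini-Hochberg adjusted p-values over every gene kept and a threshold of 0.05. CPM use the TMM-adjusted size of the tested genes. Each SE is the size of the log2 fold change over the square root of F. Positions, exon overlaps and transcript lengths come from GENCODE M21 (GRCm38). The script was tested on simulated data. The 10 genes and all lists were chosen with earlier results of these data known. Named pathway genes are up to 3 called genes of each list with the smallest p; others are named as chosen later. Alternatives were other scalings, filters and tests, the replicate block and each library left out; the exon-union length was added after the data were seen.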

Additional observations from a re-analysis of the deposited data

How the results depend on the processing

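The 8 rises among the 10 genes became 6 with the plain library size, 7 with upper-quartile scaling, 6 with the replicate block and 6 to 9 with a library left out. The fall of Nfkbiz was called in no fit without a wild-type library (0 falls, against 1 without a mutant library) and 0 falls were called with the replicate block. Replicate numbers 2 and 3 occur in both genotypes, but deviations of the same-numbered libraries correlated at -0.03 and -0.02, so the numbers are not taken as a pairing; in this paired fit Rel, Nfkbia and Nfkbiz were not called (adjusted p = 0.349, 0.0948 and 0.388). Tnfrsf11a (adjusted p = 0.0514), Tlr7, Tlr9, Tab1, Tab3, Tnip2, Tnip3 and Ccl19 were not called there either, and the list of alternative-arm activators and brakes had 2 rises in place of 4. Over all tested genes, 1801 were higher and 755 lower; 1181 and 2877 with the plain library size, 2972 and 2137 with DESeq2, 3059 and 1498 with no filter, and 752 and 232 with the replicate block. The lower genes were 1837 with upper-quartile scaling, 1365 with limma-voom and 472 with the filter at 1 CPM in 3 libraries. With a library left out, 616 to 4904 were higher and 6 to 5958 lower. Rela turned to -0.026 with upper-quartile scaling, -0.24 with the plain library size and -0.44 without Tet2-mutant replicate 2, and was called at 0.84 without Tet2-mutant replicate 3. The difference in the log2 ratio of alternative to canonical subunits (1.76) was 1.59 to 1.91 with a library left out, 1.49 on raw counts and 1.98 with exon-union lengths. That of classical inhibitors to subunits (0.05) ran from -0.22 to 0.32 with a library left out. The causes were not tested. With 2 mutant libraries, 1 of them at 17459808 counts, precision is limited by the number of samples. Both mutant libraries also had fewer genes with any count than every wild-type library.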
